A study of Mus musculus with 6 samples.

Results

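The proteasome subunit genes were read in aorta of young and aged mice. The members were the rows of the deposited count table whose symbol is Psma, Psmb, Psmc, Psmd, Psme, Psmf or Psmg followed by a number, with Psmb8 and Psmb9 left out. This gave 46 of the 55335 genes in the table, and the rule uses gene symbols and no measured value. Young aorta came from wild-type C57BL/6 mice aged 6 weeks (3 libraries) and aged aorta from wild-type C57BL/6 mice aged 6 months (3 libraries), with no treatment or transgene in either group. The study's methods describe the mice as male, with the fat around the vessel removed before RNA was taken. Each library is bulk RNA, so fewer cells of a type and less RNA per cell cannot be told apart.

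The 26S proteasome degrades proteins that carry ubiquitin chains. Its 20S core is a barrel of stacked rings: the outer alpha rings, encoded by Psma1 to Psma7, form the gate, and the inner beta rings, encoded by Psmb1 to Psmb7, hold the proteolytic sites on Psmb5, Psmb6 and Psmb7. The 19S cap recognises, unfolds and threads the substrate. Its base holds the AAA-ATPase ring (Psmc1 to Psmc6), and the other subunits of its base and lid are encoded by Psmd genes, among them Psmd14, which cuts the ubiquitin chain off. Cells can exchange the proteolytic subunits for Psmb8, Psmb9 and Psmb10 after interferon signalling, which gives the immunoproteasome. Subunit genes are known to be induced together by the transcription factor Nfe2l1 (Nrf1) when proteasome activity falls short.

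All 46 members were found in GENCODE M21, and 45 passed the filter on low counts. The exception was Psmb11, the beta subunit of thymic cortical epithelium, with 3, 12 and 0 counts in young libraries and 0 in each aged library. Deposited totals ranged from 31.0 to 45.8 M counts per library. Mitochondrial transcripts made up 21.2%, 16.7% and 14.9% of the counts in young libraries 1 to 3 and 23.1%, 26.7% and 30.4% in aged libraries 1 to 3. The smooth muscle markers were high in every library, at a summed 28153 to 40726 CPM (read counts scaled to a common library size by TMM, which takes most genes as unchanged), so the tissue label held. Young library 1 stood apart. Its Xist level was 306 CPM against at most 0.636 CPM in the other 5 libraries, and its 4 Y-linked genes reached at most 1.09 CPM against 6.01 to 85.6 CPM elsewhere, which goes against the description as male. The same library held 275 CPM of summed heart muscle markers against 41.0 to 56.9 CPM in the others, and aged library 2 held 3567 CPM of summed adipocyte markers against 450 to 1659 CPM. Results are therefore also given without these libraries.

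Levels between genes were compared as FPKM, the deposited values scaled for gene length. The median member stood at 19.8 FPKM, percentile 90.04 of the 16612 genes tested, whose median was 2.73 FPKM. The 14 subunits of the 20S rings had a median of 32.8 FPKM and ranged from 19.7 (Psmb1) to 55.9 (Psma6), a 2.84-fold span, although the subunits of a ring are present in equal number in the particle. The 6 ATPases of the 19S base had a median of 41.6 FPKM and the other 11 subunits of base and lid 17.3 FPKM, with Psmd11 lowest at 6.34 and Psmc5 highest at 50.3. The activator genes lay lower, from 8.78 FPKM for Psme4 (PA200) to 22.8 for Psme2 (PA28 beta). The 7 genes of assembly chaperones had a median of 6.43 FPKM and a range of 2.01 (Psmg3) to 8.92 (Psmg2), and the inhibitor gene Psmf1 was at 3.22 FPKM.

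The order within a group depended on the length used. FPKM values corresponded to the summed length of all annotated exons, which exceeds the principal transcript 3.36-fold for Psma7 and 1.00-fold for Psmb5. Per kilobase of the longest principal transcript, a scale chosen after seeing the data, the 20S rings ranged from 30.3 CPM per kilobase (Psma3) to 139 (Psmb6) and the span grew to 4.57-fold. Psma6 then ranked 7th of all members instead of 1st. On that scale the chaperones had a median of 7.31 CPM per kilobase against 67.5 for the 20S rings.

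**Figure D1:**
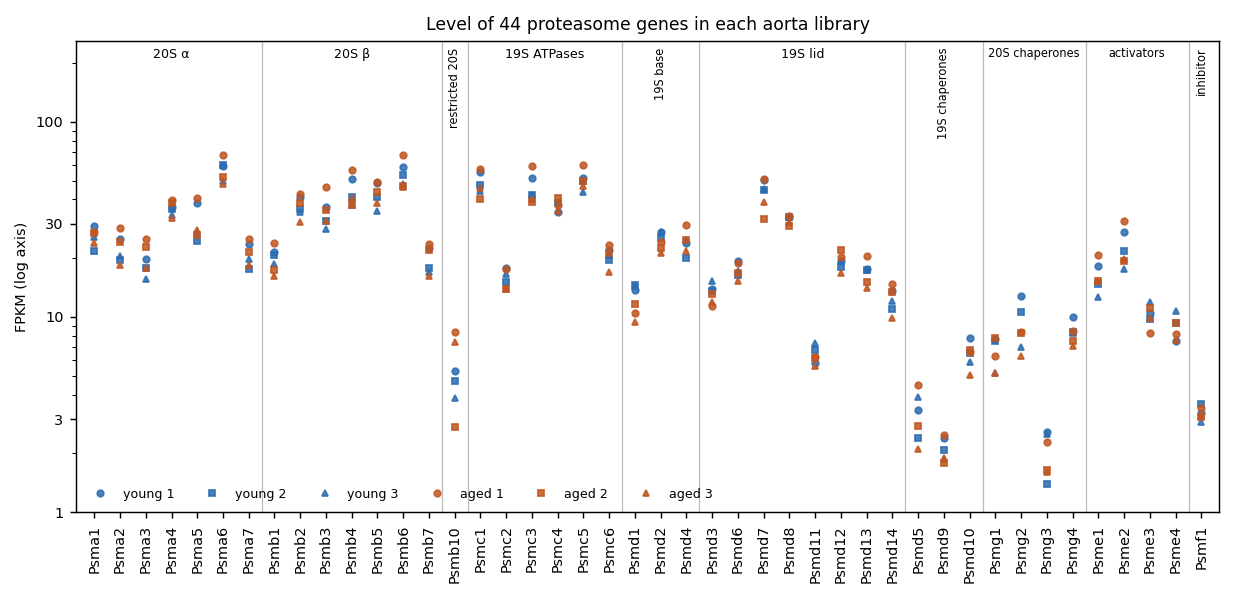
FPKM (log axis) of the 44 members above 1 FPKM in each of 6 aorta libraries, grouped by role; blue marks are young and orange marks aged libraries. Subunits of the 20S rings lie between 15.7 and 67.8 FPKM, and the assembly chaperones between 1.40 and 12.8.

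No member passed the test between ages. At an adjusted p below 0.05 in edgeR's quasi-likelihood test, 0 of 45 members and 0 of 16612 genes were called (0% of all genes). DESeq2 also called 0 members, against 338 of 14955 genes (2.26%). The lowest member adjusted p was 0.420 (Psma3). At an unadjusted p below 0.05, 1 member was higher in aged aorta and 0 lower, against 5.56% and 4.82% of all genes, so the members' count was no more than the background. The standard error of a member's log2 fold change was 0.136 to 0.413 among the 44 members above 1 CPM.

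The direction of the group depended on how libraries were scaled. With TMM scaling, 40 of 45 members had a fitted log2 fold change above 0, against 52.1% of all genes, and the median was 0.20 against 0.02 for all genes. When libraries were scaled by their total counts alone, 20 of 45 were above 0 and the median was -0.03, while the median of all genes was -0.22. The distance of the members from all genes was thus 0.18 and 0.19 on the log2 scale. Summed over the 46 members, CPM was 2901, 2533 and 2480 in young and 3430, 2873 and 2785 in aged libraries, and the groups overlapped because young library 1 exceeded aged libraries 2 and 3. Summed FPKM was 1006 ± 83.0 in young and 1011 ± 149 in aged aorta (SD, n = 3 each). As a share of counts outside the mitochondrial genome, a measure added after seeing the data, the members made up 0.348% ± 0.0361 in young and 0.380% ± 0.0352 in aged aorta (SD, n = 3 each), again with overlap.

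Single members separated the ages on the CPM scale in 9 cases. In 8 members (Psma3, Psma4, Psmb3, Psmc4, Psmc5, Psmd4, Psmd8 and Psmd12) each aged library lay above each young library, against 7.74% of all genes, and in Psmd1 each lay below, against 8.78% of all genes. In FPKM, 0 members lay above and 3 lay below (Psmd1, Psmd2 and Psmd3), against 3.24% and 20.9% of all genes. Psmd1 was thus the member that stood below in both units.

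**Figure D2:**
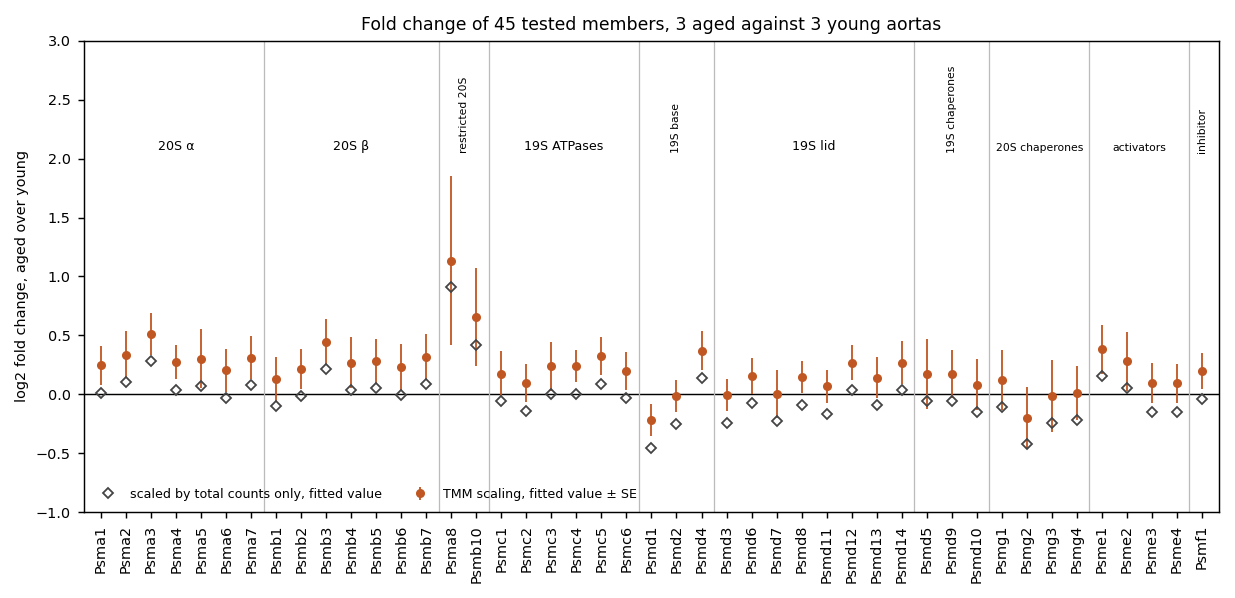
Fitted log2 fold change of aged over young aorta for 45 members by role: orange points with SE bars use TMM scaling, open diamonds scaling by total counts alone. With TMM scaling 40 members lie above 0, and with total counts 20 do.

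The alpha ring held the member with the smallest p. Psma3, a subunit of the outer ring (ENSMUSG00000060073, chr12:70974621-70996347 of GRCm38), stood at 81.0, 70.9 and 61.2 CPM in young and 115, 104 and 86.0 CPM in aged libraries. The groups did not overlap, with aged library 1 highest and young library 3 lowest. Its log2 fold change was 0.51 ± 0.18 (SE, n = 3 against 3; edgeR adjusted p = 0.420). It was 0.28 with total counts and 0.63 without young library 1. Of its sequence windows, 15.4% also occur in Gm13835, a gene with 204 to 381 counts per library. Psma6, the alpha subunit with the highest FPKM, had 76.3, 75.0 and 61.1 CPM in young and 97.01, 74.5 and 73.0 CPM in aged aorta, so that only aged library 1 exceeded the young range. All 7 alpha genes were above 0 with TMM scaling, from 0.20 (Psma6) to 0.51 (Psma3), with a median of 0.30.

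The beta ring spanned a similar range. Psmb3 (chr11:97703399-97713500), a structural subunit without a proteolytic site, had 88.1, 72.9 and 64.6 CPM in young and 124, 94.8 and 88.2 CPM in aged libraries. Its aged values lay above its young values by a narrow margin, since aged library 3 and young library 1 were almost equal. The log2 fold change was 0.44 ± 0.20 (SE; edgeR adjusted p = 0.498), and 17.8% of its windows occur in other genes too. The 7 beta genes ranged from 0.13 (Psmb1) to 0.44 (Psmb3) with TMM scaling.

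The genes of the proteolytic subunits overlapped between ages. Psmb5, the chymotrypsin-like site (chr14:54614119-54618022), had 45.8, 38.0 and 31.3 CPM in young and 51.6, 45.9 and 42.5 CPM in aged libraries. Psmb6, the caspase-like site (chr11:70525367-70527858), had 115, 101 and 89.3 CPM in young and 148, 103 and 107 CPM in aged libraries. Psmb7, the trypsin-like site (chr2:38588036-38644087), had 80.9, 61.7 and 58.3 CPM in young and 94.1, 88.0 and 68.6 CPM in aged libraries. In each of these genes young library 1 lay among the aged values. The log2 fold changes were 0.28, 0.23 and 0.32, each with an edgeR adjusted p of 0.599 or more. Of the sequence windows of Psmb5 transcripts, 54.1% occur in other genes as well, mainly in the pseudogene Gm3375, so its counts may be divided between loci.

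The promoters of 3 core genes are shown for the element through which subunit genes are known to be induced together. Those of the proteolytic genes Psmb5 and Psmb6 hold the core letters of the antioxidant response element, the element of Nfe2l1 and Nfe2l2, and that of Psma3, the member with the smallest p, does not hold them in this window. No promoter window was matched for Psmb7, the other proteolytic gene of the standard core. Each stretch is the 150 bases before the RefSeq start on the gene's own strand in GRCm38.p6. Capitals mark the motif TGACNNNGC or the NF-Y box CCAAT, searched on both strands.
Psmb5, chr14:54617996-54618145, minus strand: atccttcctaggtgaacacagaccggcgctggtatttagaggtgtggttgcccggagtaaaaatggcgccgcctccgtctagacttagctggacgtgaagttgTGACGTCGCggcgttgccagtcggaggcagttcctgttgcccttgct
Psmb6, chr11:70525207-70525356, plus strand: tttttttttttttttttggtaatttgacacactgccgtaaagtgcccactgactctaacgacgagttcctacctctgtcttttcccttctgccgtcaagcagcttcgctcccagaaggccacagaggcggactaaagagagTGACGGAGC
Psma3, chr12:70974473-70974622, plus strand: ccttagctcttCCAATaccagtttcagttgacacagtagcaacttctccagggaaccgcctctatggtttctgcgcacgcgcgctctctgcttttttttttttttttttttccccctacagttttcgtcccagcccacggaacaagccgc

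RefSeq windows of 250 bases before to 50 after the start were matched for 38 of 46 members (41 windows, with chromosome 18 left out). TGACNNNGC was found in 6 of these windows (14.6%), those of Psmb5, Psmb6, Psmc6, Psmd9, Psmd12 and Psme4, against 12.4% of all 32851 windows and 14.3% of those of genes tested. CCAAT was found in 13 (31.7%) against 37.4% of all windows and 37.3% of those of genes tested. No member's window held both motifs. A match is a run of letters and not a measured binding site.

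The 19S genes were read as ATPases and other subunits. Psmc5, the ATPase with both the smallest p and the highest FPKM, had 75.6, 70.3 and 61.0 CPM in young and 98.1, 80.4 and 80.3 CPM in aged libraries. Its groups did not overlap, and its log2 fold change was 0.32 ± 0.16 (SE; edgeR adjusted p = 0.533). All 6 ATPases were above 0 with TMM scaling, from 0.09 (Psmc2) to 0.32 (Psmc5) with a median of 0.22, and the median was -0.01 with total counts.

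Of the 11 other genes of base and lid, 8 were above 0 and 3 below with TMM scaling, with a median of 0.14. Psmd4, a ubiquitin receptor of the base, had 70.1, 57.5 and 69.7 CPM in young and 97.2, 81.7 and 75.9 CPM in aged libraries. Its groups did not overlap, and its log2 fold change was 0.37 ± 0.17 (SE, edgeR adjusted p = 0.501). Psmd2, a scaffold of the base, had the highest FPKM among the base subunits other than ATPases. It had 115, 104 and 110 CPM in young and 114, 106 and 106 CPM in aged libraries, a log2 fold change of -0.01. Of the sequence windows of Psmd2, 17.8% also occur in other genes. Psmd1, the other scaffold of the base (chr1:86064387-86139151), had 105, 108 and 104 CPM in young and 89.2, 98.3 and 84.9 CPM in aged libraries. Its young libraries were close together and each aged library lay below them, with a log2 fold change of -0.22 ± 0.14 (SE; edgeR adjusted p = 0.609). With total counts its log2 fold change was -0.45 and Psmd1 was the 1 member with an unadjusted p below 0.05 (adjusted p = 0.226), against 17.7% of all genes under that scaling.

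The 8 lid genes ranged from -0.01 (Psmd3) to 0.27 (Psmd12) with TMM scaling. Psmd12 had the smallest p, with 53.9, 48.7 and 51.5 CPM in young and 62.6, 68.0 and 55.0 CPM in aged libraries (log2 fold change 0.27 ± 0.15, SE; edgeR adjusted p = 0.560). Psmd7, the lid gene with the highest FPKM, had 120, 103 and 103 CPM in young and 135, 83.7 and 108 CPM in aged libraries, where aged library 2 was the lowest and aged library 1 the highest of all 6. Psmd14, the deubiquitinase, had 40.1, 31.7 and 34.1 CPM in young and 48.7, 44.02 and 34.7 CPM in aged libraries, with overlap.

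Ratios within a library do not depend on the scaling of libraries. Mean FPKM of the 20S rings over that of the 19S base and lid was 1.32, 1.23 and 1.13 in young and 1.38, 1.34 and 1.25 in aged libraries, and the groups overlapped. Mean FPKM of the 19S ATPases over the other base and lid genes was 1.80, 1.77 and 1.62 in young and 1.94, 1.82 and 1.87 in aged libraries. These groups did not overlap, with aged library 2 just above young library 1. The ATPase genes were shorter, with a median summed exon length of 2385 against 3057 bases. Their median log2 fold change was 0.22 against 0.14 with TMM scaling, and 0.15 against 0.09 once gene length was offset. No p is given for these ratios because they sum over chosen members. The 20S rings exceeded the base and lid genes other than ATPases by 0.14 on the log2 scale in median fold change with TMM scaling and with total counts alike, and by 0.08 once gene length was offset.

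Assembly chaperones help to build the core or the cap and are not part of the finished particle. The 19S chaperones had log2 fold changes of 0.17 (Psmd5), 0.17 (Psmd9) and 0.08 (Psmd10), and the 20S chaperones 0.12 (Psmg1), -0.20 (Psmg2), -0.01 (Psmg3) and 0.01 (Psmg4), with TMM scaling. Psmg2, which pairs with Psmg1 to build the alpha ring, had 23.4, 18.9 and 12.2 CPM in young and 17.03, 16.9 and 13.6 CPM in aged libraries, so that the young libraries alone spanned the aged range. Psmd9 had 18.2, 15.4 and 13.7 CPM in young and 21.1, 15.3 and 17.1 CPM in aged libraries. Psmd10 had 12.0, 9.80 and 8.62 CPM in young and 11.4, 11.7 and 9.20 CPM in aged libraries. Reads of Psmd9 could not be separated from the antisense gene Gm26745, whose exons overlap it over 1849 bases, because strandedness was not given in the sources used here. Exons of 11 members overlapped those of another gene on either strand. Among them were Psmb7, with antisense Nek6 over 405 bases, and Psmd1, with Gm21972 on the same strand over 301 bases.

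The activators open the core without ATP. Psme1 (PA28 alpha) had 42.1, 33.1 and 28.1 CPM in young and 53.6, 39.5 and 41.7 CPM in aged libraries, a log2 fold change of 0.38 ± 0.21 (SE; edgeR adjusted p = 0.557). Its partner Psme2 had 50.4, 39.1 and 31.0 CPM in young and 63.5, 39.7 and 43.2 CPM in aged libraries. Both genes were highest in aged library 1 and next highest in young library 1. Of the windows of Psme2, 28.3% also occur in the copy Psme2b. Psme3 and Psme4, which act in the nucleus, each had a log2 fold change of 0.09, and Psmf1, the inhibitor PI31, had 22.0, 23.7 and 18.8 CPM in young and 25.8, 23.3 and 24.9 CPM in aged libraries (0.20 ± 0.16, SE; edgeR adjusted p = 0.671).

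The same libraries stood highest and lowest in most members. Aged library 1 was the highest of 6 libraries in 31 of 44 members above 1 CPM (70.5%), against 22.4% of genes tested above 1 CPM and 49.9% of the 1678 short, highly expressed genes described with gene length. It was highest in 14 of 14 genes of the 20S rings. Young library 2 or 3 was the lowest in 36 of the 44 (81.8%), against 33.8% of genes tested above 1 CPM. Without aged library 1, 35 of 45 members were above 0, the median was 0.11, and 0 members had an unadjusted p below 0.05. Without young library 1, 43 were above 0, the median was 0.30, and 5 members had an unadjusted p below 0.05 (Psma3, Psma7, Psmb3, Psmb7 and Psme1), against 11.3% of all genes under that setting, so the members' count was about the background. Without young library 1 and aged library 2 together, the median was 0.31 and 7 members did so, against 16.5% of all genes under that setting, and 0 passed after adjustment.

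**Figure D3:**
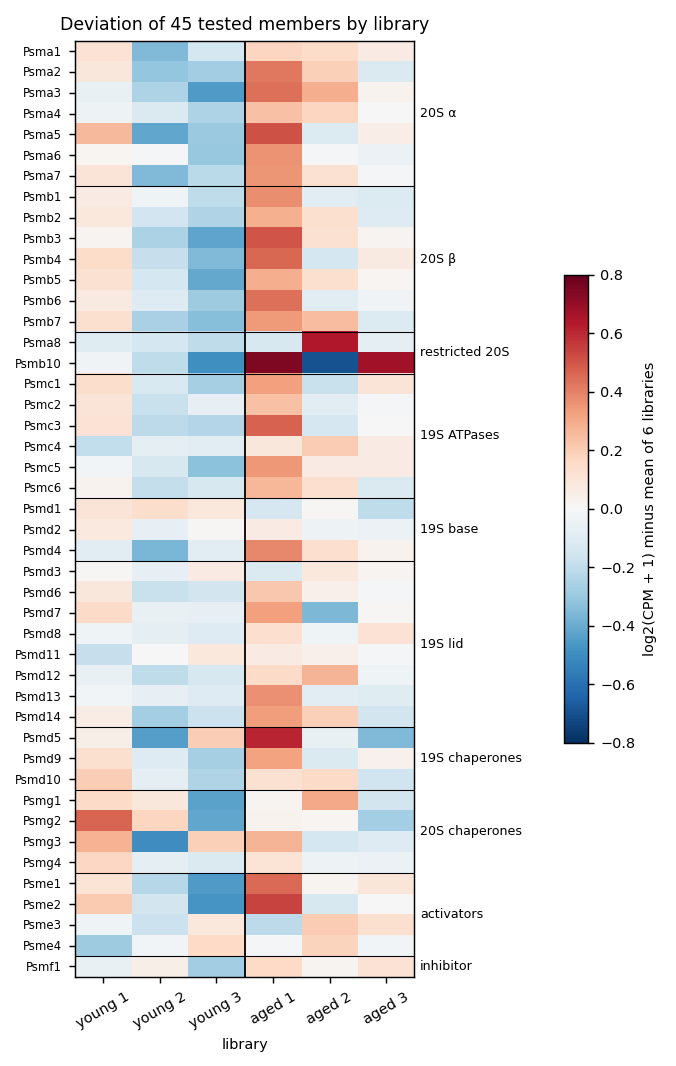
Deviation of log2(CPM + 1) from the mean of 6 libraries for the 45 tested members (rows, by role) in each library (columns); red is above and blue below the mean. The column of aged library 1 is red in all 14 genes of the 20S rings, and Psmb10 departs from its ring, with aged library 2 lowest.

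The fold change differed with gene length. The 13937 protein-coding genes tested were put in 5 bins of equal size by summed exon length. Their median log2 fold change was 0.19 in bin 1 (up to 2494 bases), 0.08 in bin 2 (up to 3747 bases), -0.0028 in bin 3, -0.05 in bin 4 and -0.07 in bin 5. The members were short, with a median of 2800 bases against 4444 for these genes, with 20 in bin 1 and 14 in bin 2. The median of the members was 0.26 in bin 1 and 0.24 in bin 2. In the 1678 genes of bins 1 and 2 that also lay in bin 5 of 5 by mean FPKM, the median was 0.18 and 75.0% were above 0, and the 26 members among them had a median of 0.27. With an offset for length in each library, added after seeing the data, the median of the members was 0.14 and that of all genes -0.02. Under that offset 36 of 45 members were above 0, and the median of the 1678 short, highly expressed genes was 0.08. The part of length in the members' values was otherwise not tested.

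**Figure D4:**
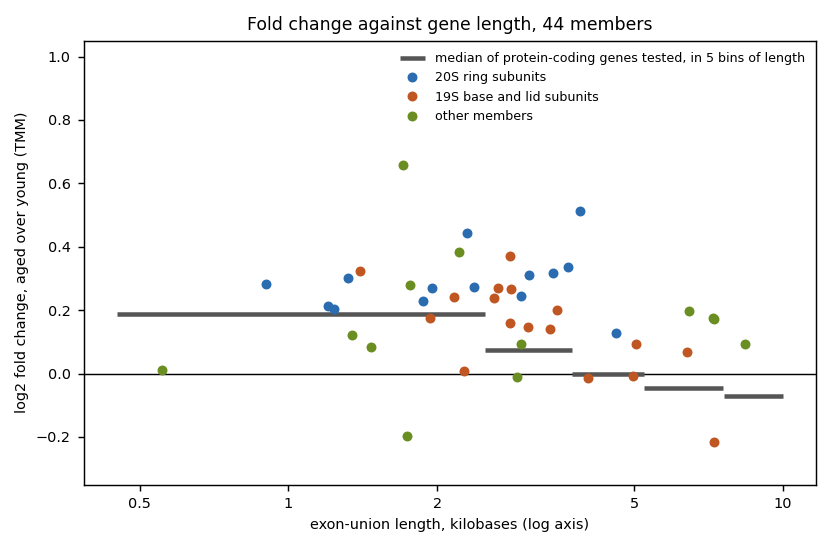
TMM-scaled log2 fold change against exon-union length (log axis) for 44 members above 1 FPKM, colored by role; grey bars mark the median of all protein-coding genes tested in each of 5 bins of length. The bars descend from 0.19 to -0.07, and most 20S ring genes lie on or above them.

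The inducible subunit Psmb10 was read apart from the 20S rings. Psmb10, which replaces Psmb7 in the immunoproteasome (chr8:105935735-105938444), had 9.43, 8.25 and 6.59 CPM in young and 16.8, 5.57 and 15.9 CPM in aged libraries. Aged libraries 1 and 3 lay above all young libraries and aged library 2 below them (log2 fold change 0.66 ± 0.41, SE; edgeR adjusted p = 0.606). Psmb10 FPKM was 23.3%, 26.6% and 22.4% of that of Psmb7 in young and 35.7%, 12.4% and 46.1% in aged libraries. This ratio is free of library scaling but not of the gene length used. Psmb10 and Psmb7 had means of 5.40 and 19.9 FPKM, but 7.96 and 64.9 CPM per kilobase of the longest principal transcript. Psmb8, left out of the members by the rule, had 8.94, 2.93 and 4.52 CPM in young and 17.4, 6.89 and 18.7 CPM in aged libraries (1.38 ± 0.51, SE; edgeR adjusted p = 0.440). For Psmb9 the log2 fold change was 0.59 ± 0.39 (SE; edgeR adjusted p = 0.624).

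Of the markers of other cell types, those of macrophages and fibroblasts were high in the same aged libraries as Psmb10. The 6 macrophage markers summed to 95.9, 83.9 and 75.2 CPM in young and 308, 103 and 206 CPM in aged libraries, and 6 of 6 were above 0, with Lyz2 most abundant. The pan-leukocyte gene Ptprc was highest in young library 2, with 1.51, 4.28 and 0.874 CPM in young and 3.04, 1.40 and 2.44 CPM in aged libraries (log2 fold change 0.05). The 6 fibroblast markers summed to 951, 1029 and 1417 CPM in young and 4816, 1027 and 3572 CPM in aged libraries, also with 6 of 6 above 0. Both sums were high in the 2 aged libraries where Psmb10 was high. The 6 smooth muscle markers went the other way, with 6 of 6 below 0 and a median log2 fold change of -0.24. They summed to 32049, 34556 and 40726 CPM in young and 33534, 29513 and 28153 CPM in aged libraries, with overlap. The 5 T and B cell markers summed to 0.481 to 2.39 CPM, with Cd3e at 0 counts in 3 libraries. The 6 endothelial markers were at 1601 CPM in aged library 3 against 330 to 484 CPM elsewhere. The adipocyte and Schwann cell sums peaked in aged library 2, where Psmb10 was lowest, at 3567 and 43.8 CPM. The part of these cells in the values of Psmb10 was not tested. Without aged library 2, Psmb10 had a log2 fold change of 1.02 (edgeR adjusted p = 0.137). That library held the lowest Psmb10 value, so leaving it out had to raise the fold change. In that setting 110 genes and 0 members were called, and 13.8% of all genes had an unadjusted p below 0.05.

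Psma8, the alpha subunit of male germ cells, was near the detection limit, with 16, 10 and 8 counts in young and 10, 46 and 10 counts in aged libraries. Aged library 2 supplied the difference (log2 fold change 1.13 ± 0.71, SE; edgeR adjusted p = 0.607).

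The wider pathway was read in 36 genes outside the members. Of these, 24 were above 0 with TMM scaling, against 52.1% of all genes, and 0 passed after adjustment. At an unadjusted p below 0.05, 4 were higher and 1 lower in aged aorta, against 5.56% and 4.82% of all genes. In TMM-scaled CPM, 5 had each aged library above each young library and 3 had each below. Over all genes these shares were 7.74% and 8.78%. Of 10 proteasome genes with other names, 8 were above 0 and 2 below, with a median of 0.20 close to that of the members. Txnl1, a thioredoxin-like protein on the 19S cap, had the smallest p (0.26 ± 0.15, SE; edgeR adjusted p = 0.577), and Sem1, a small lid subunit, the highest FPKM (0.37 ± 0.23, SE; edgeR adjusted p = 0.607).

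The 4 ubiquitin genes included the nearest to a call. With TMM scaling 3 of them were above 0 and 1 was below, at -0.02. In edgeR's test 2 were higher in aged aorta at an unadjusted p below 0.05, against 5.56% of all genes. Ubb, which encodes a chain of ubiquitin repeats, had 672, 484 and 505 CPM in young and 947, 753 and 765 CPM in aged libraries, without overlap (0.57 ± 0.20, SE; edgeR adjusted p = 0.415). Rps27a, which encodes ubiquitin fused to a ribosomal protein, had a log2 fold change of 0.38 ± 0.23 (SE; edgeR adjusted p = 0.593). Uba1, which activates ubiquitin, had 207, 161 and 180 CPM in young and 205, 169 and 180 CPM in aged libraries (log2 fold change 0.02). Among 12 genes of substrate shuttles and the p97 segregase, 6 were above 0 and 6 below. Faf2, a p97 adaptor, was at 42.7, 40.9 and 45.5 CPM in young and 35.02, 33.9 and 30.3 CPM in aged libraries (-0.38 ± 0.14, SE; edgeR adjusted p = 0.439). Vcp, the p97 ATPase itself, had a log2 fold change of 0.03 ± 0.15 (SE).

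Nfe2l1, the factor that induces subunit genes, spanned more between libraries than any member above 1 CPM, 6.02-fold from lowest to highest against at most 3.02-fold. It had 47.6, 227 and 258 CPM in young and 222, 42.8 and 82.4 CPM in aged libraries, so that young library 1 and aged libraries 2 and 3 were low and the other 3 high. Its log2 fold change was -0.62 ± 0.74 (SE; edgeR adjusted p = 0.785). Its RNA level did not order the libraries as the members did. Aged library 1, the highest in 31 members, was high for Nfe2l1, while young libraries 2 and 3, the lowest in 36 members, were high as well. The activity of the Nfe2l1 protein was not measured, and its part in the members' values was not tested. The median fold between the highest and lowest library was 1.54 among the members above 1 CPM. Its protease Ddi2 had a log2 fold change of -0.0018 and its deglycosylase Ngly1 0.04. Nfe2l2 (Nrf2) had 75.4, 86.2 and 104 CPM in young and 107, 109 and 114 CPM in aged libraries, without overlap (0.31 ± 0.16, SE; edgeR adjusted p = 0.549). Stat3 had 66.4, 78.1 and 91.9 CPM in young and 86.6, 139 and 130 CPM in aged libraries (0.59 ± 0.23, SE; edgeR adjusted p = 0.448).

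**Figure D5:**
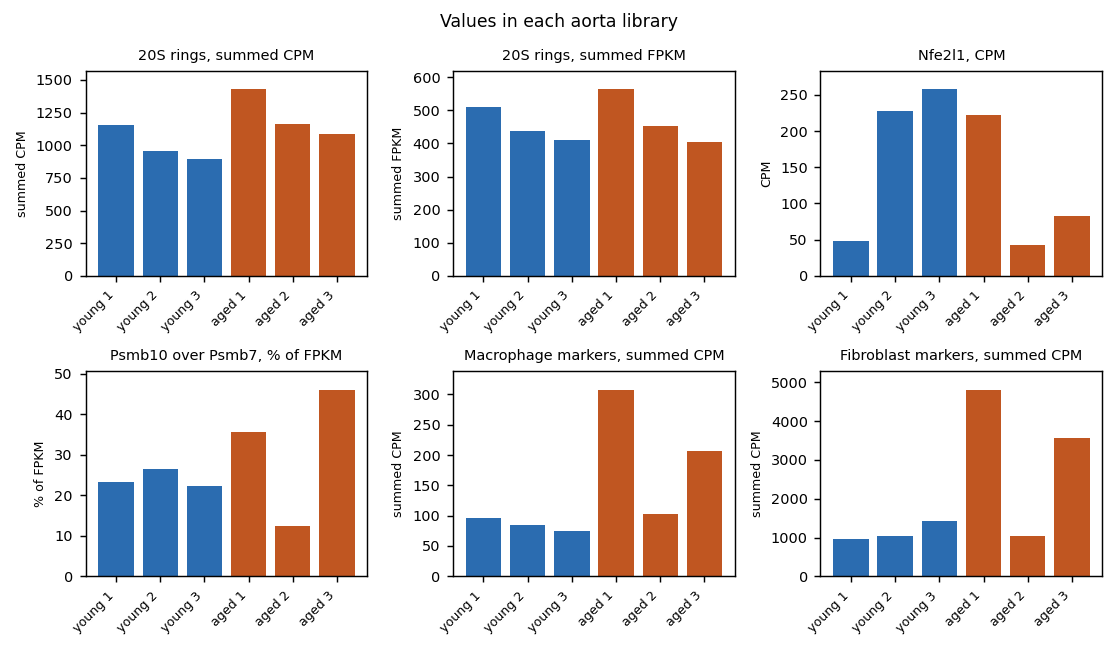
Values in each library (young blue, aged orange; bars start at 0): summed CPM and summed FPKM of the 20S rings, CPM of Nfe2l1, Psmb10 as a percent of Psmb7 in FPKM, and summed CPM of macrophage and fibroblast markers. Psmb10 and both marker sums are high in aged libraries 1 and 3, and Nfe2l1 is low in young library 1 and aged libraries 2 and 3.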

How the data were processed

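RNA from aorta of young and aged mice was sequenced with 3 libraries a group. Per the labels, libraries were made with the SMARTER mRNA-Seq kit, and the submitters' processing notes name mm10. The aligner, counter and annotation are not given in the sources used here. The authors deposited raw read counts per gene and FPKM, which they scaled by gene length and library total. Here counts were tested with edgeR 4.0.16 (R 4.3.3; TMM, quasi-likelihood, filterByExpr with a minimum count of 10 and minimum total of 15), with Benjamini-Hochberg adjustment over 16612 genes at 0.05. SE is the fold change divided by the root of F. DESeq2 1.42.0 and limma 3.58.1 on log2(FPKM + 1) or log2(FPKM + 0.1) were alternatives, with other scalings, filters, a replicate block and each library left out. The fit was tested on simulated data. The study's methods describe vessels taken from each mouse, but the labels do not say whether each library is a separate mouse. The p-values therefore weigh the difference between ages against the spread between libraries. Members and lists were chosen with earlier results of these data known. Every member was placed in a role; in each role the gene with the smallest p and that with the highest mean FPKM, the proteolytic subunits, Psmb10, members with an unadjusted p below 0.05 and those failing the filter were named, and in each pathway list the gene with the smallest p and that with the highest FPKM. Other named genes (Psmd1, Psmd14, Psme3, Psme4, Nfe2l2, Rps27a, Ddi2, Ngly1) were chosen after their values were seen. Chromosomal positions are those of GENCODE M21, and shared sequence was counted in windows of 50 bases over its transcripts.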

Additional observations from a re-analysis of the deposited data

How the results depend on the processing

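No member was called under any of 18 alternatives, and the lowest member adjusted p over them was 0.137. The number of genes called was 0 except with DESeq2 (338) and without aged library 2, the range over single libraries left out being 0 to 110. With total counts alone, and with limma on FPKM at pseudocounts of 1 and 0.1, 20 members were above 0 and the medians were -0.028, -0.012 and -0.015; 20 members changed sign in each, and the median of all genes moved to -0.22, -0.12 and -0.19. The median of the members less that of all genes stayed between 0.10 and 0.30 under every alternative. Leaving out single libraries gave members above 0 from 35 to 43, medians from 0.11 to 0.30 and 0 to 5 members at an unadjusted p below 0.05, against 6.13% to 13.8% of all genes; without young library 1 and aged library 2 together there were 7, against 16.5% of all genes. The correlations of deviations between libraries of the same replicate number were 0.0786, 0.117 and 0.0957, not all above 0.1, so the numbers were not taken as pairs. Each library did correlate best with its own number, the unmatched values being -0.134 to 0.0549, which is a hint from the data and not from the design. A fit with the replicate block gave 3 members at an unadjusted p below 0.05, against 10.7% of all genes, and called 0. The median SE of a member's log2 fold change was 0.18, which limits what 3 libraries a group can show.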
